A study of Sus scrofa with 36 samples.

Results

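In the hippocampus of 36 male piglets, 14 arrays carried a set code of S4 or S5 and 22 carried S1, S2 or S3. The code opens the submitters' description of each sample, and membership was read from it alone. The labels do not say what a set is, so anything that a set shares (a batch, a litter, a day) cannot be told apart from the set itself. All piglets were Landrace by Large White crosses, obtained at day 3 and sampled at day 38. Controls were fed milk replacer holding only basal lactoferrin, an iron-binding milk protein. For the other groups, 0.6 g/L made the medium and 1.2 g/L the high dose. S4 and S5 together held arrays of 5 control piglets, 5 on the medium dose and 4 on the high dose, while for S1 to S3 these numbers were 7, 7 and 8. The limma fits below were therefore adjusted for feeding group, except those within 1 feeding group, while means of single sets are given unadjusted. S4 held 9 arrays and S5 held 5, while S1, S2 and S3 held 4, 10 and 8. No array of S1 was of the medium dose. The labels give no sign that samples were pooled.

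The deposited values are log2 signals, so a difference of 1 is a doubling. The arrays carried hippocampal and brain transcripts at similar levels in both groups of sets. SNAP25, a protein of the synaptic vesicle fusion machinery, lay at 12.9 ± 0.144 (SD) in S4 and S5 and 12.9 ± 0.211 in S1 to S3. MBP, a main protein of myelin, lay at 14.6 ± 0.108 and 14.5 ± 0.144, and GFAP, the astrocyte filament protein, at 12.7 ± 0.189 and 12.7 ± 0.282. RGS14, a marker of hippocampal field CA2, was at 9.54 ± 0.450 and 9.505 ± 0.454. Lactoferrin's own gene, LTF, was below the level at which probe sets were tested, at 4.53 ± 0.127 and 4.60 ± 0.276. The signal of the actin control probe set at the 3′ end exceeded that at the 5′ end by 2.64 ± 0.418 in S4 and S5 and by 3.00 ± 0.513 in S1 to S3. A polyadenylated spike-in control, Dap, was absent (log2 at most 6) on 3 of 14 arrays of S4 and S5 and on 7 of 22 of S1 to S3. With the actin difference as a covariate, a fit added after it was seen to differ, 124 probe sets were called, among them 106 of the 112 described below. For the spike-in, fits on the arrays that carried it are given beside the results.

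Interferons are signal proteins that cells release on sensing virus or other danger. Type I interferon acts through a receptor and a transcription factor complex that holds IRF9 to switch on a set of genes whose products block viral replication, and interferon gamma raises antigen presentation, in part through IRF1. In the brain, microglia, astrocytes, endothelial cells and neurons can all respond. In bulk tissue, a larger share of responding cells and more RNA per cell cannot be told apart.

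Genes of the interferon response were higher in S4 and S5. Among them were RSAD2 (4.20-fold), the guanylate-binding protein GBP1 (3.36-fold), ISG15 (2.98-fold) and IFIT1 (2.61-fold). Genes of antigen presentation rose beside them, with the class II chain SLA-DRA 2.10-fold and the class I light chain B2M 1.70-fold higher. Markers of neurons, astrocytes and oligodendrocytes gave no call. Of 18006 probe sets tested with limma, 112 differed at an adjusted p under 0.05, or 0.622%, with 105 higher and 7 lower in S4 and S5. With 1 probe set per gene, 59 of 6034 genes were higher (0.978%) and 3 were lower (0.0497%). Unadjusted, 1265 probe sets had a p under 0.05 where 900 are due by chance alone, and these were 620 higher and 645 lower, so the calls lay to one side while the wider group did not.

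How firmly these calls stand depends on the spread. For 58 of the 59 higher genes the SD was larger in S4 and S5 than in S1 to S3 (median 0.547 against 0.251), whereas over all 6034 genes this held for 42.5%. With standard errors that allow unequal spread (HC3), chosen after this was seen, 0 probe sets were called and the smallest adjusted p was 0.0720. In that fit 1031 of 18006 probe sets had an unadjusted p under 0.05, all 112 among them. The 112 were chosen for small p values on the same differences, which favours this. Without S2 the count fell to 45, without S3 to 28 and without S4 to 46, and on the arrays with the spike-in alone to 5. All 112 differences kept their direction in each of these fits. The 112 were chosen on the difference over all arrays, and these fits share many of those arrays, which favours the same direction. The HC3 fit leaves the differences themselves unchanged.

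ISG15 encodes a ubiquitin-like protein that is attached to other proteins in interferon-treated cells. Its log2 signals on the 9 arrays of S4 were 11.3, 10.3 and 9.5 in control piglets, 7.6, 8.2 and 8.1 at the medium dose and 7.6, 10.9 and 10.7 at the high dose. On the 5 arrays of S5 they were 10.8 and 8.5 in control, 10 and 8.7 at the medium and 9.9 at the high dose. The 22 arrays of S1 to S3 ran from 7.4 through a median of 7.8 to 8.9. The groups overlapped: 8 of 14 arrays of S4 and S5 lay above the highest of S1 to S3, and the others lay within their range. The difference was 1.58 ± 0.254 (SE) on the log2 scale, with a limma adjusted p of 0.000512.

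IFIT1 encodes a protein that binds viral RNA lacking the host's cap methylation. It ran from 6.3 through a median of 8.15 to 9.4 in S4 and S5 and from 6.0 through 6.65 to 7.4 in S1 to S3. Here 9 of 14 arrays lay above the highest of S1 to S3, and the lowest of S4 and S5, a control piglet of S5, lay below the S1 to S3 median. The difference was 1.39 ± 0.222, with a limma adjusted p of 0.000512. A further probe set named for this gene was also called, at 1.61, and the remaining one differed by 0.25 ± 0.0796 without passing (adjusted p = 0.244).

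B2M encodes beta-2 microglobulin, the light chain that every class I molecule needs to reach the cell surface. It ran from 11.8 through 12.95 to 13.7 in S4 and S5 and from 11.6 through 12.15 to 12.6 in S1 to S3, again with 9 of 14 arrays above the highest of S1 to S3. The difference was 0.77 ± 0.121 (limma adjusted p = 0.000512). The array annotation, which is old, gives 9 tested probe sets to this gene. The probe set of the highest mean over all arrays, used here, and one other were called higher (the latter by 0.74 ± 0.131), and the other 7 lay between -0.59 and 0.17 with none called. The high values of S4 and S5 entered that choice: in S1 to S3 alone the mean of the probe set used was 12.06, below the 12.27 of another that differed by 0.02 ± 0.0374 (adjusted p = 0.970). With probe sets chosen on S1 to S3 alone, B2M was the 1 gene of the 59 that lost its call. Which of the 7 truly report B2M was not tested.

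**Figure D1:**
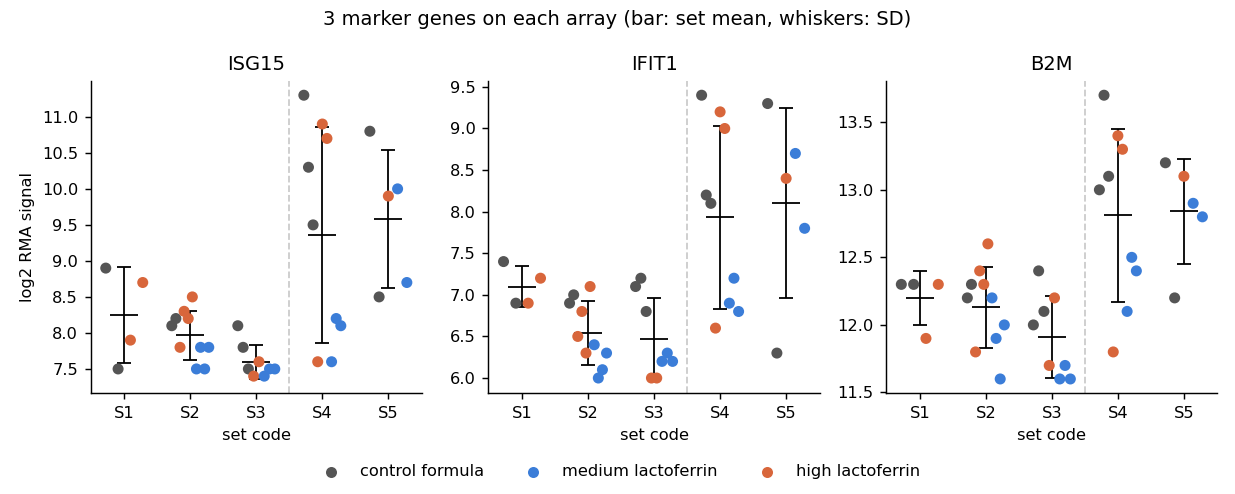
The log2 RMA signal of ISG15, IFIT1 and B2M (vertical axes) on each of the 36 arrays is shown by set code (horizontal axis) and coloured by feeding group, with the set mean and SD. Means of S4 (9.36) and S5 (9.58) lie above those of S1 to S3 (7.60 to 8.25) for ISG15, and several arrays of S4 lie at the level of S1 to S3.

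Permuting the set codes within feeding groups 100000 times gave a two-sided p of 2e-05 for ISG15, 1e-05 for IFIT1 and 2e-05 for B2M, where 1e-05 is the smallest this resampling can give. That test takes each array as a unit. The comparison was chosen with earlier results of these data known. The high values of S4 and S5 also entered the choice of the B2M probe set. With each set as a unit, S4 and S5 had the highest means of the 5 sets for all 3 genes, and an exact two-sided permutation of the set means gave p = 0.1, the smallest that 10 assignments allow. A design of 5 sets thus cannot reach 0.05 when the set is the unit. On the arrays with the spike-in alone the 3 differences were 1.44, 1.30 and 0.75, with adjusted p values of 0.0583, 0.0584 and 0.0571 in limma.

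Among 21 tested genes of a list of antiviral interferon-stimulated genes, 16 were called higher and none lower, and the median difference was 0.78, beside -0.01 over all 6034 genes. All 21 lay above 0, against 2608 of 6034 genes overall. On the spike-in arrays alone 1 of the 21 was called, without S2 5, without S3 4 and without S4 9, while the median stayed between 0.69 and 0.76 in those fits. Another 5 genes of the list were on the array but under the filter.

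RSAD2, or viperin, makes a nucleotide that ends viral RNA chains. It ran from 4.5 through a median of 7.5 to 9.6 in S4 and S5 and from 4.3 through 4.85 to 6.3 in S1 to S3, with 9 of 14 arrays above the highest of S1 to S3. The difference of 2.07 ± 0.357 (limma adjusted p = 0.00130) was the largest of any called gene. The lowest value of S4 and S5, at 4.5, was again below the S1 to S3 median. Without S2 its limma adjusted p was 0.0518 at the same size, and on the spike-in arrays alone 0.104 at a difference of 1.86.

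Several others of the list were higher, and some of these act on viral RNA or sense it. XAF1, a pro-apoptotic interferon target, was 0.91 ± 0.144 higher. EIF2AK2, the kinase PKR that halts translation on double-stranded RNA, was 0.79 ± 0.140 higher, and DDX58, the RNA sensor RIG-I, 0.68 ± 0.123. The dynamin-like GTPases MX1 and MX2 were higher by 0.78 ± 0.147 and 0.63 ± 0.129. IFIT3 was higher by 0.995 ± 0.211 and IFIT2 by 0.45 ± 0.104. These 7 genes had limma adjusted p values between 0.000512 and 0.0213.

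USP18, the protease that removes ISG15 from proteins and dampens interferon receptor signalling, was, with DDC, 1 of 2 higher genes above the S1 to S3 median on every array of S4 and S5. It ran from 6.8 through 7.75 to 10.1 in S4 and S5, against a median of 6.7 in S1 to S3. The difference was 1.30 ± 0.230 (limma adjusted p = 0.00142), and 7 of 14 arrays exceeded the S1 to S3 maximum of 7.9. PLAC8 and IFI44L, both interferon-induced, were higher by 1.39 ± 0.299 and 1.07 ± 0.190. PARP9 and the nuclear body protein SP110 were higher by 0.73 ± 0.148 and 0.42 ± 0.103. PLAC8 overlapped widely, from 5.4 to 9.3 against 5.1 to 8.0. The gene listed as ISG12(A), an interferon-stimulated gene outside the list, was higher by 1.32 ± 0.242.

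Of 19 genes of interferon signalling and induction, 2 were called higher and none lower, and their median difference was 0.06. The called genes were the transcription factors IRF9 (0.72 ± 0.133, limma adjusted p = 0.00213) and IRF1 (0.76 ± 0.156, adjusted p = 0.00623). The count of 2 was 0 without S3 or on the spike-in arrays alone, 1 without S2 or without S4, and 4 without medium-dose replicate 9 of S4. IRF7, which amplifies type I interferon production, differed by 0.37 ± 0.0946 and did not pass (adjusted p = 0.0635), but did with the actin difference as a covariate. The levels of interferon genes were also read, chosen after their values were seen. IFNB1 and IFNG lay under the filter in both groups, at 3.59 ± 0.237 and 3.74 ± 0.122 in S4 and S5 and 3.50 ± 0.169 and 3.72 ± 0.122 in S1 to S3. IFNA1, a member of a family of near-identical genes, was at 6.66 ± 0.128 and 6.61 ± 0.125.

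Class I molecules show peptides from inside the cell to T cells. Of 15 genes of this pathway, 8 were called higher and none lower, with a median of 0.33. They included TAP1, a subunit of the peptide pump (0.69 ± 0.123), and PSMB8, a catalytic subunit of the immunoproteasome (0.49 ± 0.0916), beside B2M. The heavy chains SLA-3, SLA-2 and SLA-6 were higher by 0.73 ± 0.149, 0.59 ± 0.124 and 0.56 ± 0.122. Pig class I genes are near-identical in sequence, so the array may not separate them. PSME1 and PSME2, subunits of the interferon-induced proteasome activator, were higher by 0.33 ± 0.0707 and 0.43 ± 0.0817, while of 29 constitutive and other proteasome subunits none was called and the median was -0.01. The count of 8 fell to 4 without S2, 1 without S3, 2 without S4 and none on the spike-in arrays alone.

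Class II molecules, which present taken-up antigen and are found on microglia and other antigen-presenting cells, gave 6 higher and no lower calls of 11, with a median of 0.45. SLA-DRA ran from 5.2 through 6.5 to 8.9 in S4 and S5 and from 5.1 through 5.75 to 7.0 in S1 to S3. Its difference was 1.07 ± 0.225 (limma adjusted p = 0.00848), with 5 of 14 arrays above the highest of S1 to S3. SLA-DQA1, SLA-DRB1 and SLA-DQB1 were higher by 0.55 ± 0.110, 0.55 ± 0.119 and 0.45 ± 0.103. CD74, the invariant chain that guards the peptide groove, was higher by 0.49 ± 0.112, and CTSS, the protease that trims it, by 0.63 ± 0.141. No class II gene was called without S2, without S3 or on the spike-in arrays alone, and 1 was called without S4. With the set code as a random block 2 were called, and with sets weighted equally 3.

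Targets best known for interferon gamma gave 4 higher calls of 8, with a median of 0.29. None of the 8 was called without S2 or on the spike-in arrays alone, and 2 were called without S3 or without S4. GBP1 ran from 6.1 through 8.3 to 9.9 in S4 and S5 and from 5.0 through 6.35 to 9.2 in S1 to S3. Its difference was 1.75 ± 0.334 (limma adjusted p = 0.00300), and 5 of 14 arrays exceeded the highest of S1 to S3, a control piglet of S3. It lost its call without S4 (adjusted p = 0.329), without S2 (0.0844) and on the spike-in arrays alone (0.0942). UBD, a ubiquitin-like modifier also called FAT10, ran from 4.8 through 6.45 to 9.2 against 4.6 through 5.15 to 5.9. With 11 of 14 arrays above the highest of S1 to S3, it had the most of the 59 genes, and its difference was 1.56 ± 0.260 (adjusted p = 0.000791). GBP2 and the inflammatory protease CASP1 were higher by 0.58 ± 0.129 and 0.49 ± 0.101.

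**Figure D2:**
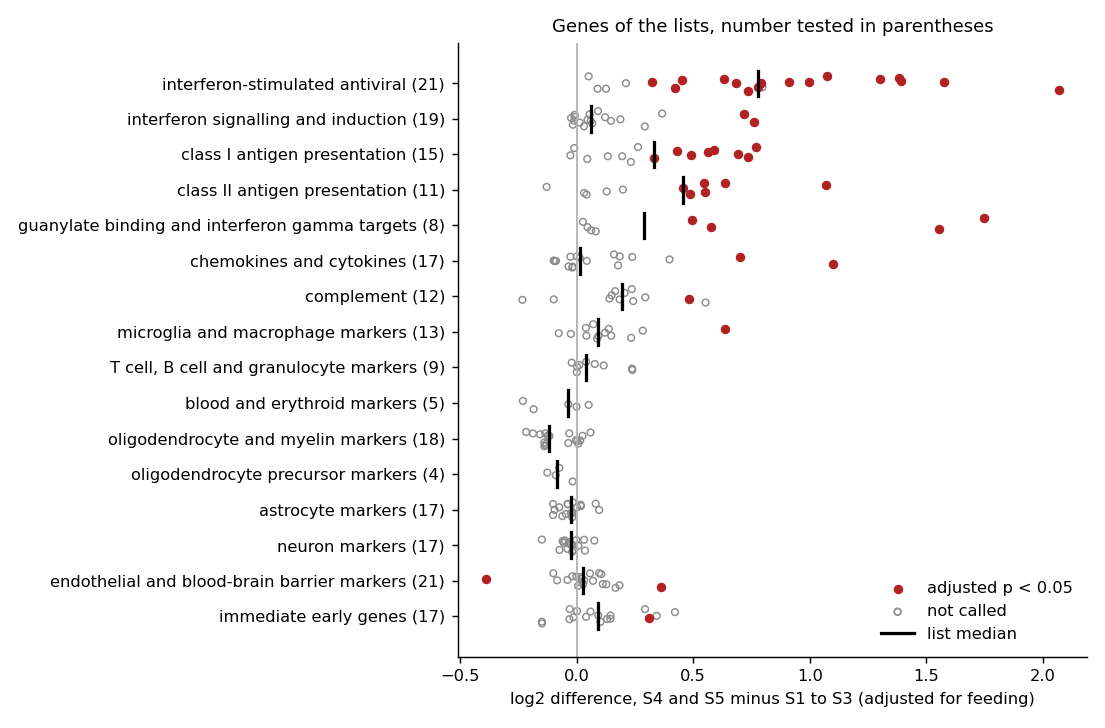
Each point is a gene of a list, placed by its log2 difference between S4 and S5 and S1 to S3 after adjustment for feeding (horizontal axis), with called genes filled and the list median as a bar. The antiviral list has its median at 0.78 and the oligodendrocyte list at -0.12.

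Among 17 chemokines and cytokines 2 were called higher. TNFSF10, the death ligand TRAIL, ran from 5.5 through 7.25 to 8.1 against 5.3 through 5.85 to 7.4, a difference of 1.098 ± 0.201 (limma adjusted p = 0.00199). CCL2, which draws monocytes, was higher by 0.70 ± 0.164 (adjusted p = 0.0245), while CCL8 differed by 0.40 ± 0.119 and did not pass (adjusted p = 0.192). Of 12 complement genes C1R, a protease that starts the classical pathway, was called (0.48 ± 0.114, adjusted p = 0.0273). C4A (0.55 ± 0.171, adjusted p = 0.229) and SERPING1, the inhibitor of C1R (0.24 ± 0.0685, adjusted p = 0.154), did not pass.

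Of 13 microglia and macrophage markers 1 was called, CTSS, which is also counted in the class II list. Unadjusted, 5 of the 13 had a p under 0.05 and were higher (CD53, FCER1G, LAPTM5, PTPRC and CTSS), with none lower, against 226 higher and 251 lower of all 6034 genes, and 11 of the 13 lay above 0. The mean of these markers was 7.49 ± 0.220 in S4 and S5 and 7.35 ± 0.143 in S1 to S3, and it ran from 7.16 to 8.03 in S4 and S5 and from 7.18 to 7.68 in S1 to S3. AIF1, a marker of microglia, differed by 0.07 ± 0.0776 and CD53 by 0.28 ± 0.101, without passing (limma adjusted p = 0.933 and 0.429). Of 9 markers of T cells, B cells and granulocytes none was called at the threshold, though 2 had an unadjusted p under 0.05, and their mean ran from 5.59 to 6.13 against 5.50 to 5.82. CD2 differed by 0.24 ± 0.0827 (adjusted p = 0.399). CD3E and CD8A lay under the filter. Blood genes gave no call of 5, and HBB, a haemoglobin chain, differed by 0.00 ± 0.0828. The part of immune cells or blood in the interferon difference was not tested.

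Beyond these lists, 36 of the 59 higher genes belonged to the 5 interferon and antigen lists, 5 to other lists only and 18 to none. Of the 18, PARP12, an antiviral ADP-ribosyltransferase, was higher by 0.80 ± 0.143 and the zinc finger gene PHF11 by 0.32 ± 0.0680. Others were DDC, the last enzyme of dopamine and serotonin synthesis (0.47 ± 0.0976), the ion channel protein CLIC2 (0.51 ± 0.0980) and the G protein subunit GNG11 (0.41 ± 0.0826). DDC lay above the S1 to S3 median on all 14 arrays. FCGR1A, a high-affinity antibody receptor of myeloid cells, was higher by 0.35 ± 0.0829. The genes of this paragraph had limma adjusted p values between 0.00142 and 0.0247, and they were named after their values were seen.

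Immediate early genes, which neurons induce within minutes of activity, gave 1 call of 17. IER2 was 0.31 ± 0.0538 higher (limma adjusted p = 0.00132). FOS differed by 0.34 ± 0.132 (adjusted p = 0.528) and DUSP1 by 0.42 ± 0.136 (adjusted p = 0.280), and neither passed. Among genes of the circadian clock, DBP differed by -0.19 ± 0.0522 and also did not pass (adjusted p = 0.0947).

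Lower genes were few. CD93, a surface receptor of endothelial cells, ran from 8.8 through 9.25 to 9.8 in S4 and S5 and from 9.0 through 9.7 to 10 in S1 to S3. It fell by 0.39 on the log2 scale (SE 0.0757, limma adjusted p = 0.00372), and the other probe set of the gene had the same sign without being called. ALAD, an enzyme of haem synthesis, ran from 7.0 through 7.25 to 7.3 against 7.2 through 7.4 to 7.9 and fell by 0.22 (SE 0.0494, adjusted p = 0.0141). SCARB1, a receptor for high-density lipoprotein, fell by 0.16 (SE 0.0413, adjusted p = 0.0491). Of 21 endothelial and blood-brain barrier genes, CD93 was the one lower call and NOSTRIN, which regulates nitric oxide synthase, the one higher call (0.36 ± 0.0907, adjusted p = 0.0472), and the median was 0.03.

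**Figure D3:**
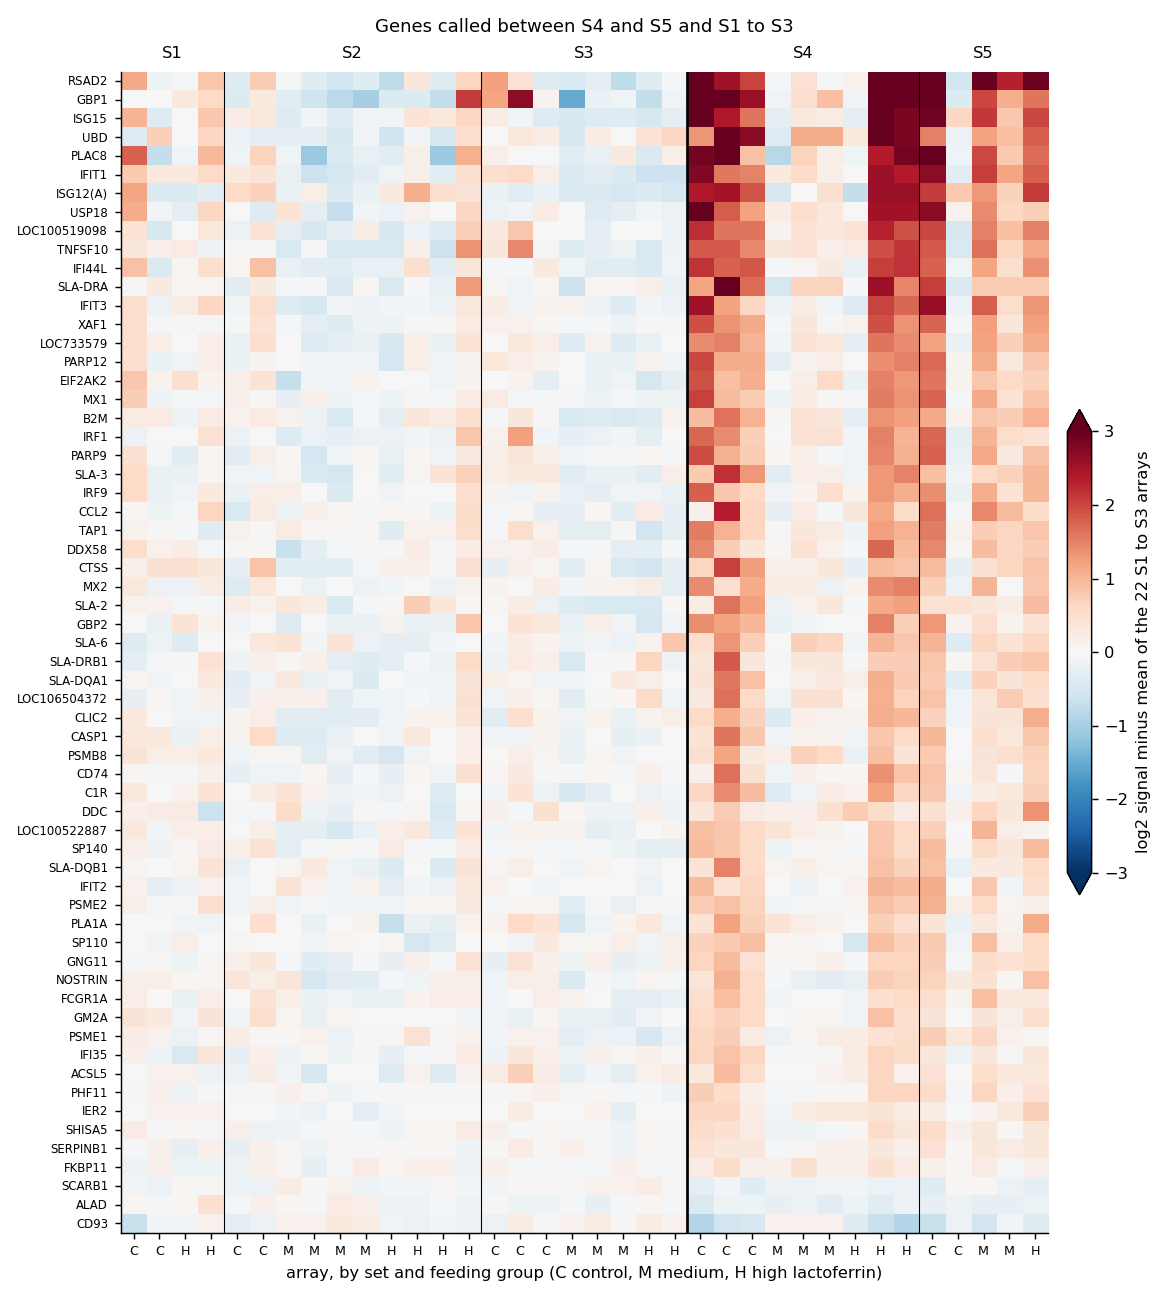
Rows are the 62 called genes, ordered by their difference, and columns the 36 arrays by set and feeding group. Colour gives the log2 signal minus the mean of the 22 arrays of S1 to S3. The interferon genes at the top, called on the difference between these groups, are raised on most arrays of S4 and S5. Most of them lie close to 0 on medium-dose replicate 8 and high-dose replicate 9 of S4 and control replicate 12 of S5. Medium-dose replicates 9 and 10 of S4 are raised in part, with UBD at 1.11 on both and GBP1 at 0.495 and 0.895.

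No brain cell list other than those above gave a call. The median difference was -0.03 for 17 neuron genes, -0.03 for 17 astrocyte genes and -0.12 for 18 oligodendrocyte genes, of which 13 lay below 0. MAG, a myelin adhesion protein, differed by -0.22 ± 0.116 (limma adjusted p = 0.769). The oligodendrocyte mean ran from 9.73 to 10.27 in S4 and S5 and from 9.62 to 11.03 in S1 to S3. TTR, the main product of the choroid plexus, differed by 0.17 ± 0.271 (adjusted p = 0.961). The growth factor BDNF differed by -0.04 ± 0.108, and none of 18 neurotrophins and growth factors was called. None of 42 genes of oxidative phosphorylation or 56 of cytosolic ribosomal proteins was called, and 52 of the latter lay slightly above 0, with a median of 0.05. None of 11 genes of iron handling and lactoferrin receptors was called either (median -0.03).

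S4 and S5 were also set against S1 to S3 separately. S4 gave 111 calls (0.616%), with 88 higher and 23 lower, and S5 gave 1, a higher probe set with no gene name (0.00555%, 854 at an unadjusted p under 0.05). Both comparisons share the arrays of S1 to S3. The 59 higher genes were called on both sets pooled, so values above 0 in each are favoured by that choice and are given as a description. Their median difference was 0.62 in S4 and 0.54 in S5, all 59 were above 0 in both, and 30 were larger in S5. RSAD2 was higher by 1.91 ± 0.415 in S4 and 2.36 ± 0.523 in S5, and ISG15 by 1.48 and 1.75. Set directly against each other, S4 and S5 gave 0 calls (0%) in limma, with 1781 probe sets at an unadjusted p under 0.05 and a smallest adjusted p of 0.0649. With the actin difference as a covariate this count was 30, and that of S4 against S1 to S3 was 264. The S4 minus S5 difference was -0.27 ± 0.418 for ISG15 and -0.44 ± 0.587 for RSAD2. The count for S5 rests on few arrays: it was 89 without control replicate 12 and 0 without any one of the other 4. The count for S4 was between 23 and 63 without any one of control replicates 8, 9 and 10 or high-dose replicates 10 and 11.

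The genes with the smallest p between S4 and S5 came from elsewhere, and none passed without the actin covariate; SOX9 and ABTB1 passed with it. SOX9, a transcription factor of astrocytes and stem cells, was lower in S4 by value (S4 minus S5, -0.56 ± 0.119, limma adjusted p = 0.105). ABTB1 differed by 0.50 ± 0.102 the other way (adjusted p = 0.0649), SF3B1, a splicing factor, by 0.35 ± 0.0882 (adjusted p = 0.224) and NANS, an enzyme of sialic acid synthesis, by -0.34 ± 0.0853 (adjusted p = 0.224). Of the 59 genes, 1 had an unadjusted p under 0.05 in this comparison.

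The higher genes were also counted on single arrays. They were chosen as higher in S4 and S5, which favours high counts there, so the counts are given as a description. Counted against their S1 to S3 medians, 53 to 59 of the 59 were above on 9 of the 14 arrays of S4 and S5. On the other 5 (control replicate 12 of S5; medium-dose replicates 8, 9 and 10 and high-dose replicate 9 of S4) the numbers were 20, 21, 47, 47 and 30. Among S1 to S3 they ran from 5 to 51. Against the highest value of S1 to S3, the most was 58 genes, on control replicate 9 of S4, and on 2 arrays the number was 0. Control replicate 9 also had the highest class II mean (7.83) and microglia mean (8.03) of all arrays. Without that array 85 or more of the 112 probe sets stayed called, as on leaving out any other single array, and the 3 markers were called in all 36 such fits.

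**Figure D4:**
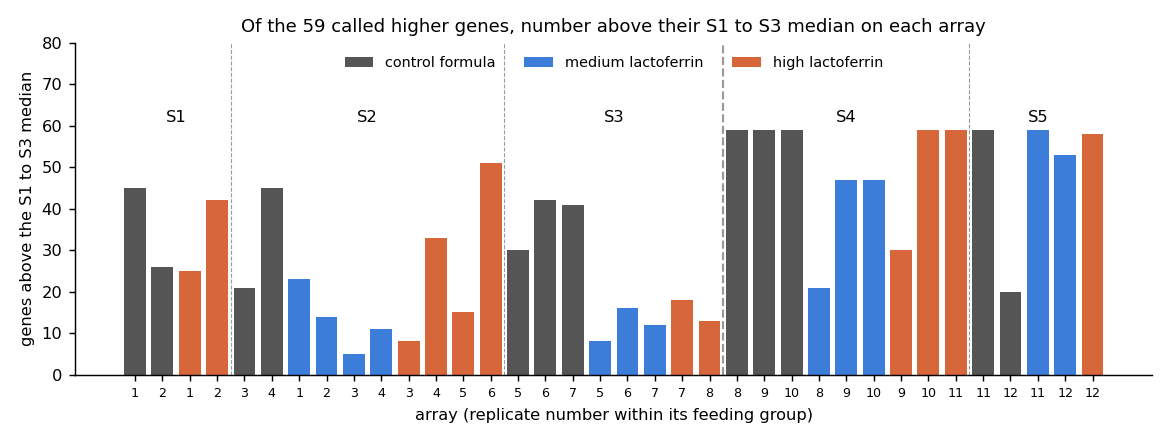
Bars give, for each of the 36 arrays, how many of the 59 higher genes lay above their median in S1 to S3. The arrays are grouped by set and coloured by feeding group. Bars of S1 to S3 run from 5 to 51 and those of S4 and S5 from 20 to 59. The genes were chosen on the difference between these groups, which favours higher bars in S4 and S5.

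Within each feeding group the difference, with S4 and S5 pooled, had the same sign. As S1 held no medium-dose array, at that dose S4 and S5 were set against S2 and S3 alone. Over all its arrays S1 had an ISG15 mean of 8.25, against 7.97 in S2 and 7.60 in S3. The feeding groups thus do not share the same baseline sets. The 59 genes were chosen on the pooled difference, which favours one sign in each group. Their median was 0.69 in control, 0.43 in medium-dose and 0.70 in high-dose piglets, and all 59 lay above 0 in each group. ISG15 averaged 10.08 ± 1.11 (SD) against 8.01 ± 0.485 in control, 8.52 ± 0.915 against 7.57 ± 0.160 in medium-dose and 9.78 ± 1.51 against 8.05 ± 0.450 in high-dose piglets. B2M differed by 0.81, 0.74 and 0.75 in the same order. At the medium dose, S4 lay nearer to S1 to S3 than S5 did. There the antiviral list mean was 6.71, 6.95 and 6.77 on arrays of S4 and 7.93 and 7.18 on those of S5. The medium-dose arrays of S1 to S3 reached 6.67. In S4 this mean was 8.36, 7.84 and 7.64 in control and 6.61, 8.24 and 8.05 in high-dose piglets. In S5 it was 8.36 and 6.65 in control and 7.74 in high-dose piglets. Fitted alone, no feeding group gave a call between S4 and S5 and S1 to S3. A test of whether the difference depended on feeding called 1 probe set (0.00555%), which is none of the 59, and 3 of the 59 had an unadjusted p under 0.05 in it, as had 1618 of 18006 probe sets. That test pools S4 with S5, and whether the difference of S4 alone depended on feeding was not tested.

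S1, S2 and S3 also differed among themselves. An F test called 192 probe sets (1.07%), of which none was among the 112. Unadjusted, 2902 of 18006 probe sets and 1 of the 59 higher genes had a p under 0.05, where chance alone gives 900 probe sets. With the actin difference as a covariate 41 were called. The called genes of the widest range included MEG3, a maternally expressed non-coding RNA, with means of 9.58, 10.29 and 10.48 in S1, S2 and S3 (limma adjusted p = 0.0263) and 10.34 and 10.20 in S4 and S5. RLBP1, a retinoid-binding protein, had 8.28, 8.64 and 7.84 (adjusted p = 0.0385), and 7.98 and 7.84 in S4 and S5. For ISG15 the F test gave an adjusted p of 0.774, for IFIT1 0.841 and for B2M 0.676. For each of the 59 genes, chosen on the pooled difference, the unadjusted means of S4 and S5 were both above those of S1, S2 and S3.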

How the data were processed

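The authors deposited log2 values per probe set of a porcine Affymetrix array, 1 array per sample, for which the submitters' processing notes name RMA and Affymetrix Expression Console 1.1. RMA subtracts background and gives all arrays a common distribution, and values were rounded to 1 decimal, which hides small differences. Array medians were 6.6 to 6.7. Of 23999 probe sets besides 124 controls, 18006 with a mean at or above the 25th percentile (log2 4.92) were tested. The array annotation gave exactly 1 symbol to 10069 and several to 198, and 9961 were matched by gene ID to RefSeq. A gene was read from its probe set of highest mean over all arrays.

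Differences between sets were fitted in R 4.3.3 with limma 3.58.1 (lmFit and eBayes, two-sided) over 36 arrays with feeding group as a covariate, and adjusted by Benjamini-Hochberg over 18006 probe sets at 0.05. S4 and S5 separately, S1 to S3 among themselves and dependence on feeding had fits of their own. The test among S1 to S3 drew its spread from the arrays of all sets, S4 and S5 included. The fits were tested on simulated data with independent noise, equal spread in both groups and no set effect. That simulation cannot speak to the unequal spread or to sets. Marker genes were permuted by array within feeding groups and over unadjusted set means in Python 3.11.15, and figures drawn with matplotlib 3.10.9. The labels do not say which piglets shared a litter or pen. Except over set means, the p-values take each array as a unit and set the difference against the spread between arrays. Arrays of the same set may not be independent, which the main fits do not allow for.

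Genes were named by rule: the 15 largest called changes each way, 8 each way between S4 and S5 and 16 among S1 to S3, for each list described its 3 members of smallest p, and ISG15, IFIT1, B2M, HBB, TTR, MBP, GFAP, SNAP25, AIF1, FOS, BDNF and LTF. Others, used as examples, were chosen after their values were seen. The comparison, the members, the 35 lists and the rules were chosen with earlier results of these data known. No sequence is shown, and the promoter search that had been planned was not run, as no sequence was used here.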

Additional observations from a re-analysis of the deposited data

Results flagged for a closer look

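The test of whether the set difference depended on feeding called 1 probe set, LOC106504299, with a limma adjusted p of 0.00806. S4 and S5 minus S1 to S3 was -0.04 in control, 0.45 in medium-dose and -0.26 in high-dose piglets. It is not the gene's representative probe set.

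Single arrays stood apart from their set in 5 of 70 checks of marker genes and list means, where chance gives about 1 in 20. In S1, high-dose replicate 1 was lowest for B2M, at 11.9 with the other 3 at 12.3. In S2, high-dose replicate 6 was highest for the interferon signalling list (7.36, others up to 7.26) and for the interferon gamma target list (8.11, others up to 7.69). Control replicate 6 of S3 was highest for the endothelial list (7.38, others up to 7.18). Control replicate 4 of S2 was highest for the oligodendrocyte list (10.7, others up to 10.1). None of these arrays belongs to S4 or S5.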

How the results depend on the processing

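The 112 differences between S4 and S5 and S1 to S3 kept their sign under every setting tried in which the probe set was present. They were chosen on the difference over all arrays, many of which these settings share, so a kept sign is favoured by that choice. Without the equal-spread assumption (HC3) 0 were called, and with a spread not pooled over probe sets 100; both fits were added after the data had been seen. The 50th percentile filter gave 67 calls (S5 against S1 to S3, 0; S4 against S5, 5; feeding dependence, 0), and 1 probe set per gene 69 (S5, 0; S1 to S3 among themselves, 5; feeding dependence, 0). A random block for sets gave 74, with a single correlation within sets, 0.0373, shared by all probe sets. That fit does not take the set as the unit. Arrays with the spike-in alone gave 5 (S4, 0; S5, 0; S4 against S5, 1; S1 to S3, 0; feeding dependence, 0), with fewer arrays fitted. Without S1, S4 gave 55, S5 0 and S1 to S3 1. Without S2 there were 45 calls (S4, 1; S5, 0; S4 against S5, 1; S1 to S3, 943; feeding dependence, 0), and without S3 28 (S4, 5; S5, 0; S4 against S5, 1; S1 to S3, 1; feeding dependence, 0). Without S4 there were 46 (also for S5; S1 to S3, 14), and without S5 S1 to S3 gave 126 and feeding dependence 0.

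Control arrays alone gave 0 (S4, 0; S5, 0; S1 to S3, 0). Medium-dose arrays alone gave 0 (S4, 1; S5, 127; S4 against S5, 1; S1 to S3, 0) and high-dose arrays alone 0 (S4, 0; S5, 7; S4 against S5, 6; S1 to S3, 10). S5 held 1 high-dose array, so the high-dose counts that involve S5 rest on that array and cannot show a difference of the set. Its count at the medium dose rests on 2 arrays. No feeding covariate gave 0 for S5, and equal set weights 251 for S4. The spike-in covariate gave 116 for the main comparison, among them 109 of the 112. It gave 1 for S4 against S5 and 101 for S1 to S3, and quantile normalisation gave 5 for S4 against S5. Array weights gave 222 for S4, 19 for S5, 4 between them, 398 for S1 to S3 and 6 for feeding dependence. Leaving out the 3 arrays of lowest correlation gave 60 for S4 and 3 for feeding dependence. Oligodendrocyte and neuron covariates gave 688 for S1 to S3 and 0 for feeding dependence, and the choroid plexus covariate 49 for S4 and 1 for S4 against S5. The actin covariate, added after the data had been seen, gave 264 for S4, 30 for S4 against S5 and 41 for S1 to S3. Probe sets chosen on S1 to S3 alone, also added, gave 58 higher genes in place of 59. The cause of these shifts was not tested. The 3 markers passed the permutation by array, with the B2M probe set chosen on all arrays, and 0 of 3 can pass over set means.

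Leaving out 1 array at a time gave 86 to 145 calls for the main comparison. For S4 it gave 23 to 161 (control replicate 8, 63; 9, 38; 10, 62; high-dose replicate 10, 23; 11, 29) and for S5 0 to 89 (high-dose replicate 9, 14; control replicate 9, 3; medium-dose replicate 2 or control replicate 3, 2). S4 against S5 ran from 0 to 1, feeding dependence from 1 to 4, and S1 to S3 from 1 (control replicate 1 or high-dose replicate 2) to 473 (high-dose replicate 1). Of the other B2M probe sets 4 turned the sign, at -0.587, -0.176, -0.0157 and -0.0127, with none called. No paired analysis was possible, as the labels give no pairs of piglets and replicate numbers only count arrays within a feeding group.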
